A study of Mus musculus with 8 samples.

Results

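The genes described here are 8 collagen chain genes of the corneal and limbal matrix, namely the collagen VI genes Col6a1, Col6a2 and Col6a3, the fibril-associated collagen genes Col12a1, Col14a1 and Col16a1, and the transmembrane collagen genes Col13a1 and Col23a1. They were chosen by symbol from the 23420 named genes of the table, which hold 44 collagen chain genes in all, and all 8 were found. The study compared the limbus, the ring of tissue between cornea and sclera that houses the epithelial stem cells, with the central cornea by RNA sequencing. Both groups came from untreated wild type C57BL/6J mice 8 weeks of age. The cornea group consisted of dissected corneal buttons and the limbus group of dissected limbal rims, and tissue was pooled over animals before RNA extraction. The labels number 4 samples per tissue, but the values are not given per sample. They were treated as those of 1 cornea library and 1 limbus library. The spread between animals is therefore unknown, and nothing was tested across replicates. Since these are bulk tissues, fewer cells of a type and less RNA per cell cannot be told apart.

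Collagen VI is assembled inside the cell from an α1, an α2 and an α3 chain, the products of Col6a1, Col6a2 and Col6a3, and is secreted as tetramers that join into beaded microfilaments around cells and between fibrils. Collagens XII, XIV and XVI carry interrupted triple helices, which is the mark of fibril-associated collagens, and XII and XIV sit on the surface of collagen fibrils such as those of the corneal stroma. Collagens XIII and XXIII span the plasma membrane with the collagenous part outside the cell, from which furin-type proteases can shed a soluble ectodomain.

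Named genes took 26104317 reads in the cornea library and 21182025 in that of the limbus, of which the 10 most abundant genes made up 17.5% and 13.3%. Reads per gene were worked back from the mean, fold change and error that the authors deposited. They were divided by the size factor of each library, giving normalised reads. Differences between the tissues are given as log2 ratios of limbus over cornea of normalised reads, so that a positive value is higher in the limbus. The intervals are exact 95% Clopper-Pearson intervals that cover counting error only. A gene was called higher in a tissue when its interval left 0 and each library had over 3 reads. These calls compare the 2 libraries and have no replicate check. Markers set the tissues apart: Krt12, the keratin of the corneal epithelium, had 1137735 corneal and 233324 limbal reads, and Krt15, a keratin of basal limbal cells, had 37738 and 353826.

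Of the 8 genes, 6 were called higher in the limbus, beside 33.2% of all 13862 genes that had over 3 reads in each library. Col6a3 alone was called higher in the cornea, beside 40.6% of those genes. The interval of Col13a1 held 0. A difference of at least 2-fold towards the limbus was found for Col14a1, Col16a1 and Col23a1, that is for 3 of the 8, beside 15.5% of all genes. None of the 8 had a 2-fold difference towards the cornea, beside 8.99%. The 8 genes had a median log2 ratio of 0.58, and all 13862 genes one of -0.05. All 8 had a normalised mean of at least 50, and of the 11808 genes at that level 32.5% were called higher in the limbus, 45.7% higher in the cornea, 11.4% at least 2-fold higher in the limbus and 8.6% at least 2-fold higher in the cornea. Scaling to total reads in place of the size factors moved every log2 ratio by 0.206 towards the limbus. Col6a3 then had 0.069 (0.00077 to 0.14) and Col13a1 0.42 (0.00069 to 0.84), so both intervals only just left 0. All 8 genes were then called higher in the limbus, beside 45.1% of all genes, with 29.7% called higher in the cornea.

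**Figure D1:**
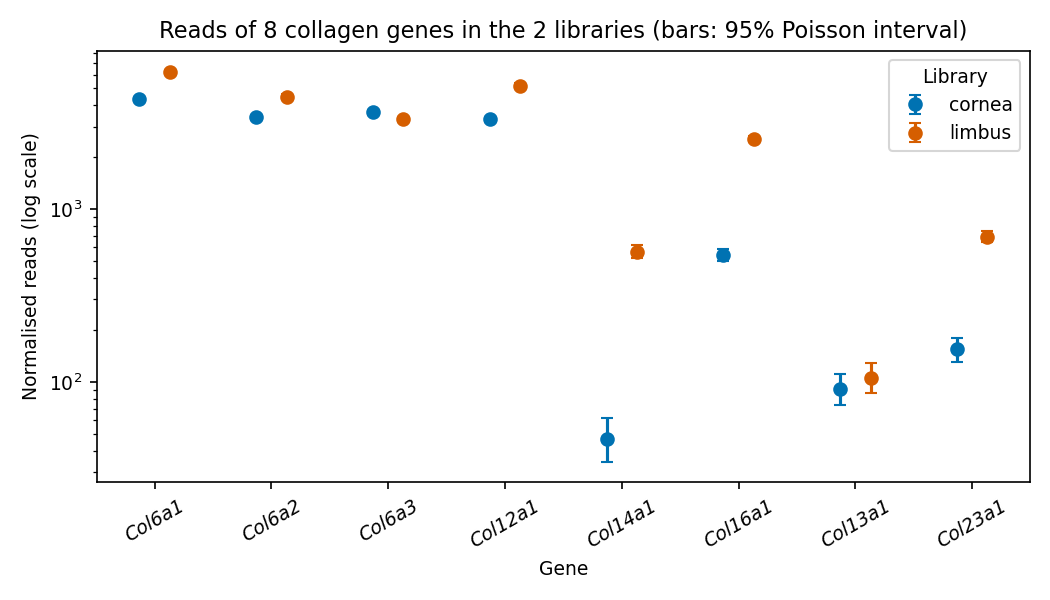
Normalised reads (log scale) of the 8 collagen genes in the cornea library (blue) and the limbus library (orange), 1 point per library, with the 95% Poisson interval of the reads as bars. The limbal point is far above the corneal one for Col14a1, Col16a1 and Col23a1, while the points of Col13a1 and Col6a3 lie close together.

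The genes lie on 6 chromosomes of GRCm38 by the GENCODE annotation. Col6a2 (chr10:76595762-76623630) and Col6a1 (chr10:76708792-76726168) are neighbours on the minus strand, separated by 85161 bases that hold 1 noncoding gene. Col6a3 is on chr1:90765923-90843971, Col12a1 on chr9:79598991-79718831, and Col13a1 on chr10:61838236-61979108, all on the minus strand. Col14a1 is on chr15:55307750-55520803, Col16a1 on chr4:130047840-130099283 and Col23a1 on chr11:51289920-51583918, all on the plus strand. The introns of Col12a1, Col13a1, Col14a1 and Col6a3 hold antisense transcripts, pseudogenes or other noncoding models, but no exon base of any of the 8 genes is shared with another annotated gene.

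The promoter stretches of 5 of the genes are shown because Col6a1 and Col6a2 had nearly the same log2 ratio and Col6a3 did not, and because Col16a1 and Col23a1 had the closest ratios among the larger differences. Each stretch is the 120 bases before the first annotated exon, read from RefSeq sequence of GRCm38.p6, 5′ to 3′ on the strand of the gene, with CpG dinucleotides in capitals. The first exon annotated for Col6a1 begins 124 bases upstream of its RefSeq start, so its stretch lies that much farther from the RefSeq start than those of the other genes. The stretches are chr10:76726169-76726288 for Col6a1, chr10:76623631-76623750 for Col6a2 and chr1:90843972-90844091 for Col6a3, on the minus strand, and chr4:130047720-130047839 for Col16a1 and chr11:51289800-51289919 for Col23a1, on the plus strand.
Col6a1: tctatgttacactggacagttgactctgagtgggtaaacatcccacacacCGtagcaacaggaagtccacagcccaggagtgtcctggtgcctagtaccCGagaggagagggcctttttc
Col6a2: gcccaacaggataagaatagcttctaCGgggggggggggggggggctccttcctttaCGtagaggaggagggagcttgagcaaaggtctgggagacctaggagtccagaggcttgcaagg
Col6a3: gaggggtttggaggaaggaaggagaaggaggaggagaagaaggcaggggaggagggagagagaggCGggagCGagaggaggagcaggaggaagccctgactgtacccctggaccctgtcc
Col16a1: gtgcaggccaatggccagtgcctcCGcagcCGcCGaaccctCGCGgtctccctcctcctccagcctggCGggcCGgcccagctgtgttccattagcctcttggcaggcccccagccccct
Col23a1: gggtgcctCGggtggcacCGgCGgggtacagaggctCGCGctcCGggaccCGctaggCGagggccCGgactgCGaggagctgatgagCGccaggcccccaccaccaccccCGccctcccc

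The collagen VI stretches held 2 CpG each, that of Col16a1 held 7 and that of Col23a1 held 12. Over the whole promoter window of 300 bases around the RefSeq start, Col6a1 and Col6a3 held 3 CpG, Col6a2 held 6, Col16a1 and Col23a1 held 24 each, and Col13a1 held 29, beside a median of 7 over 32817 windows. Col12a1 and Col14a1 had no window among the promoter sequences used. The motifs searched on both strands were the TATA box TATAAA, the GC box GGGCGG, the CCAAT box, the AP-1 element TGANTCA and the SMAD element CAGACA. The GC box was found in the windows of Col6a2, Col16a1 and Col23a1 and is in 35.6% of all windows. The AP-1 element was found for Col6a1 (7.81% of all windows), the CCAAT box for Col16a1 (37.4%), and the TATA box for Col13a1 (13.6%). Counted from the RefSeq start, these matches began at -90, -113 and -237. The AP-1 match of Col6a1 thus lay within its first annotated exon and outside the stretch shown. The SMAD element was in none of the 6 windows searched and is in 21% of all windows. A match describes the letters of the window and does not show that a factor binds there.

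The chains of collagen VI differed little between the tissues, and not in the same way. Col6a1, the α1 chain gene, had 4491 corneal and 5983 limbal reads, which gave 4344 and 6185 normalised reads. The log2 ratio was 0.51 (95% interval 0.45 to 0.57), or 1.42-fold higher in the limbus. Col6a2, the α2 chain gene, had 3501 corneal and 4325 limbal reads, with a log2 ratio of 0.40 (0.34 to 0.47), or 1.32-fold. Both genes were thus modestly higher in the limbus. Col6a3 encodes the α3 chain, the longest of these chains, which carries many of the N-terminal domains and the C-terminal fragment endotrophin. It had 3748 corneal and 3191 limbal reads, with a log2 ratio of -0.14 (-0.20 to -0.07), or 1.10-fold higher in the cornea, and 44.96% of all genes had a lower ratio. The 3 genes together had 11740 corneal and 13499 limbal reads. With the size factors these gave a log2 ratio of 0.30 (0.26 to 0.33).

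The balance between chains within a library does not depend on how the libraries are scaled. The Col6a1 reads per Col6a2 read rose from 1.28 (cornea) to 1.38 (limbus), a ratio of 1.08 (exact 95% interval 1.02 to 1.14). The Col6a1 reads per Col6a3 read rose from 1.20 to 1.87, a ratio of 1.56 (1.47 to 1.66). For Col6a2 per Col6a3 the ratio was 1.45 (1.36 to 1.55). The shift between α3 and the other chains was therefore larger than counting error, and that between α1 and α2 was small. Expressed per kilobase of merged exons, Col6a1 made up 58.3% of the summed collagen VI level in the cornea and 63.5% in the limbus. The share of Col6a2 was 23.9% and 24.1%, and that of Col6a3 was 17.8% and 12.4%. With the length of the longest transcript in place of merged exons, Col6a1 made up 50.3% and 54.95%, Col6a2 32.7% and 33.2% and Col6a3 17.02% and 11.9%. The levels of the chains relative to each other thus depended on the length used, while the lower Col6a3 share in the limbus was found with both.

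**Figure D2:**
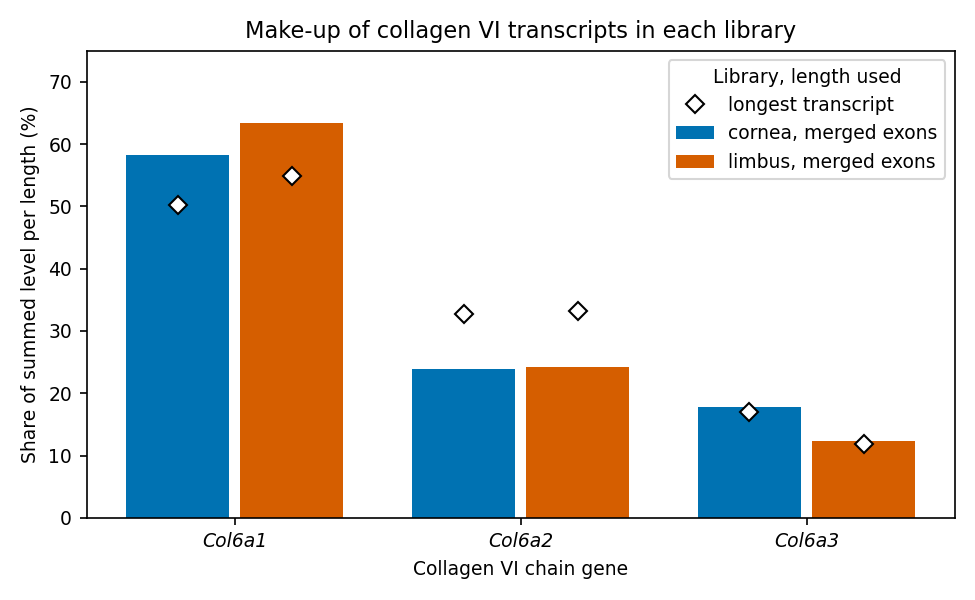
Share (%) of each chain gene in the summed level per length of Col6a1, Col6a2 and Col6a3, in the cornea (blue bars) and the limbus (orange bars) by merged exon length, with open diamonds for the longest transcript. Col6a3 falls from 17.8% to 12.4% and Col6a1 rises from 58.3% to 63.5% by merged exons.

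The fibril-associated genes spread far more than collagen VI. Col14a1 had 48 corneal and 548 limbal reads, or 46.4 and 566 normalised reads. Its log2 ratio of 3.61 (3.18 to 4.07) was a 12.2-fold difference and the highest of the 8 genes, and 98.1% of all genes had a lower ratio. Col16a1, whose product is found in fibrillin microfibrils and near basement membranes as well as with fibrils, had 560 corneal and 2451 limbal reads. Its log2 ratio was 2.23 (2.09 to 2.36), or 4.68-fold, with 93.1% of all genes lower. Col12a1 encodes a very large chain that carries many fibronectin type III repeats. It was abundant in both tissues, with 3409 corneal and 5014 limbal reads and a log2 ratio of 0.65 (0.59 to 0.72), or 1.57-fold.

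Collagens XII and XIV have similar domain plans, and the balance of their genes differed strongly between the libraries. The cornea held 71.0 Col12a1 reads per Col14a1 read and the limbus 9.15, a ratio of 0.129 (0.0936 to 0.174). Per length these were 32.7 and 4.21. The Col14a1 reads relative to Col16a1 reads were 2.61 times as high in the limbus as in the cornea (1.91 to 3.63). Col14a1 was thus shifted beyond both other fibril-associated genes by more than counting error.

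The transmembrane genes were the least abundant of the 8 with Col14a1, and they parted from each other. Col23a1 had 159 corneal and 669 limbal reads, a log2 ratio of 2.17 (1.92 to 2.43), or 4.50-fold. Col13a1, whose product is known at cell adhesions and at the neuromuscular junction, had 94 corneal and 102 limbal reads. Its log2 ratio was 0.21 (-0.20 to 0.63), so the reads of both libraries could not be told apart at this depth, and the interval leaves room for values up to 0.63. The Col13a1 reads per Col23a1 read fell from 0.591 (cornea) to 0.152 (limbus), a ratio of 0.258 (0.183 to 0.364). Col23a1 had a ratio close to that of Col16a1: the cornea held 3.52 and the limbus 3.66 Col16a1 reads per Col23a1 read, and the ratio of 1.04 had an interval of 0.849 to 1.27 that held 1. With the next best pair of read numbers, which met the table far less closely, the log2 of that ratio was 0.58 (0.062 to 1.08), and the interval no longer held equality. Of the 28 pairs among the 8 genes, the interval left 1 for 24, and besides Col16a1 with Col23a1 the pairs whose interval held 1 were those of Col13a1 with each collagen VI gene. The same count was not made for pairs of other genes, so the number of such pairs is no result about these collagens.

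Levels of different genes can be compared only per length, here as RPKM, that is reads scaled by merged exon length and by the total on named genes, with 95% Poisson intervals. In the cornea Col6a1 was highest at 39.3 RPKM (38.1 to 40.4), followed by Col6a2 at 16.1, Col6a3 at 12.002, Col12a1 at 8.58 and Col16a1 at 3.18. Below them came Col23a1 at 1.06 (0.903 to 1.24), Col13a1 at 0.782 (0.632 to 0.957) and Col14a1 at 0.262 (0.193 to 0.348). The intervals of Col23a1 and Col13a1 overlapped, and their order turned when the longest transcript was used. In the limbus Col6a1 was again highest at 64.5 RPKM (62.9 to 66.1), followed by Col6a2 at 24.5, Col16a1 at 17.1 (16.5 to 17.8), Col12a1 at 15.5 (15.1 to 16.0) and Col6a3 at 12.6. Col23a1 followed at 5.51, Col14a1 at 3.69 (3.39 to 4.01) and Col13a1 at 1.05 (0.853 to 1.27). No intervals of neighbours in the limbal order overlapped. Col16a1 thus lay below Col6a3 and Col12a1 in the cornea and above both in the limbus, and Col13a1 took the last place from Col14a1. All 8 genes together had 16010 corneal and 22283 limbal reads, a log2 ratio of 0.57 (0.54 to 0.60).

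The reads were also set against those of Col1a1, a chain of the main fibrillar collagen of the stroma, and of Dcn, which encodes the small proteoglycan decorin that binds collagen VI and XIV. Which cells express the 8 genes was not tested. Both reference genes were higher in the limbus themselves, so that any gene with a smaller ratio than theirs turns to the corneal side by construction. Col1a1 had 13776 corneal and 30674 limbal reads, a log2 ratio of 1.25 (1.22 to 1.28), and Dcn had 30813 and 44833, a log2 ratio of 0.64 (0.62 to 0.66). Relative to Col1a1 the Col6a1 gene was lower in the limbus, with a ratio of ratios of 0.598 (0.573 to 0.625). The ratios were 0.555 for Col6a2, 0.661 for Col12a1, 0.487 for Col13a1 and 0.382 for Col6a3. Relative to Dcn the ratios were 0.916 for Col6a1, 0.849 for Col6a2, 0.585 for Col6a3, 0.746 for Col13a1 (0.558 to 0.998) and 1.01 for Col12a1 (0.965 to 1.06). Col14a1, Col16a1 and Col23a1 stayed higher in the limbus by both references. Relative to Col1a1 their ratios were 5.13 (3.81 to 7.04), 1.97 (1.79 to 2.16) and 1.89 (1.59 to 2.26), and relative to Dcn they were 7.85, 3.01 and 2.89. Relative to Col1a1, 3 of the 8 genes were thus called higher in the limbus, beside 8.72% of all genes, and 5 higher in the cornea, beside 80.4%. Relative to Dcn, 3 were called higher in the limbus, beside 14.1%, and 4 higher in the cornea, beside 70.6%. The corneal calls were therefore fewer than the share of all genes would give and are no result about these collagens.

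**Figure D3:**
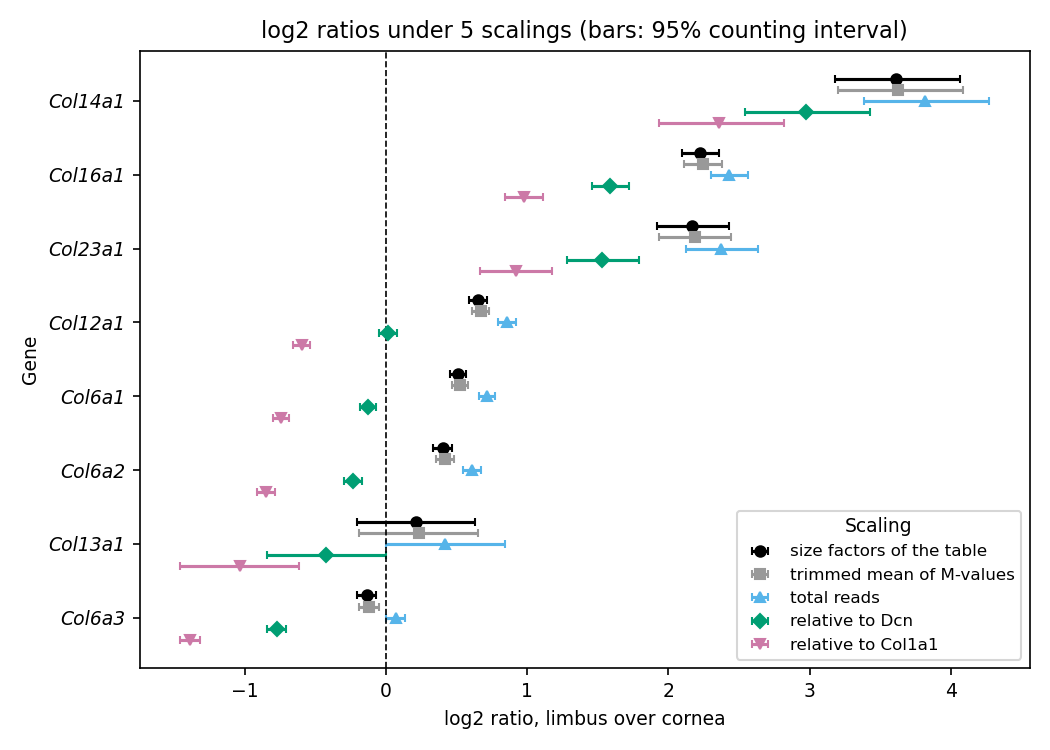
log2 ratio of limbus over cornea of each of the 8 genes under 5 scalings, with 95% counting intervals as bars and a dashed line at 0. Col14a1, Col16a1 and Col23a1 stay right of 0 under all 5, whereas Col6a1, Col6a2, Col12a1 and Col13a1 lie left of 0 relative to Col1a1 and Col6a3 crosses 0 with total reads.

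Other chains of the same classes were 12 genes, of which 11 were named in the table and 5 had more than 3 reads in both libraries. Of these 5, 2 were called higher in the limbus, 1 higher in the cornea and 2 neither. The shares of all genes were 33.2% higher in the limbus and 40.6% higher in the cornea. Col17a1, the transmembrane collagen of epithelial hemidesmosomes, had 65707 corneal and 24775 limbal reads, a log2 ratio of -1.31 (-1.33 to -1.29), opposite in sign to Col23a1. The fibril-associated Col20a1 had 76 and 137 reads, with a log2 ratio of 0.95 (0.53 to 1.37), and Col9a3 had 15 and 53, with 1.92 (1.07 to 2.85). Col9a1 had 44 and 30 reads and the neuronal transmembrane collagen gene Col25a1 4 in each library. The alternative collagen VI chain genes Col6a5 and Col6a6, whose products can take the place of α3, had no reads in the cornea and 24 and 37 in the limbus. With 3 reads put in for the corneal 0, they were 8.55-fold and 13.2-fold higher in the limbus. These values leave out counting error in the limbal reads and are not lower limits. Col9a2 likewise had 0 and 29 reads, or 10.3-fold higher in the limbus with 3 reads put in. Col6a4 and Col22a1 had 0 and 3 reads, too few for a ratio, and Col19a1 had none.

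Fibrillar collagens are those that the fibril-associated chains decorate. Of the 10 tested, 7 were higher in the limbus and 1 was higher in the cornea, with a median log2 ratio of 1.35. Over all genes, 33.2% were called higher in the limbus and 40.6% higher in the cornea. Col3a1 had 106 corneal and 3124 limbal reads, a log2 ratio of 4.98 (4.70 to 5.27), and Col1a2 had 14627 and 26048, with 0.93. Of the 11 basement membrane, short-chain, multiplexin and anchoring collagens tested, 10 were higher in the limbus and none was higher in the cornea, with a median of 1.81. Col8a2 of the Descemet membrane had 1319 and 4323 reads, with a log2 ratio of 1.81, Col15a1 had 4 and 268, with 6.16, and the anchoring fibril gene Col7a1 had 1496 and 1452, with 0.05 (-0.05 to 0.16). The median of the 8 genes described here, 0.58, was lower than the medians of both these groups and higher than that of all genes.

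**Figure D4:**
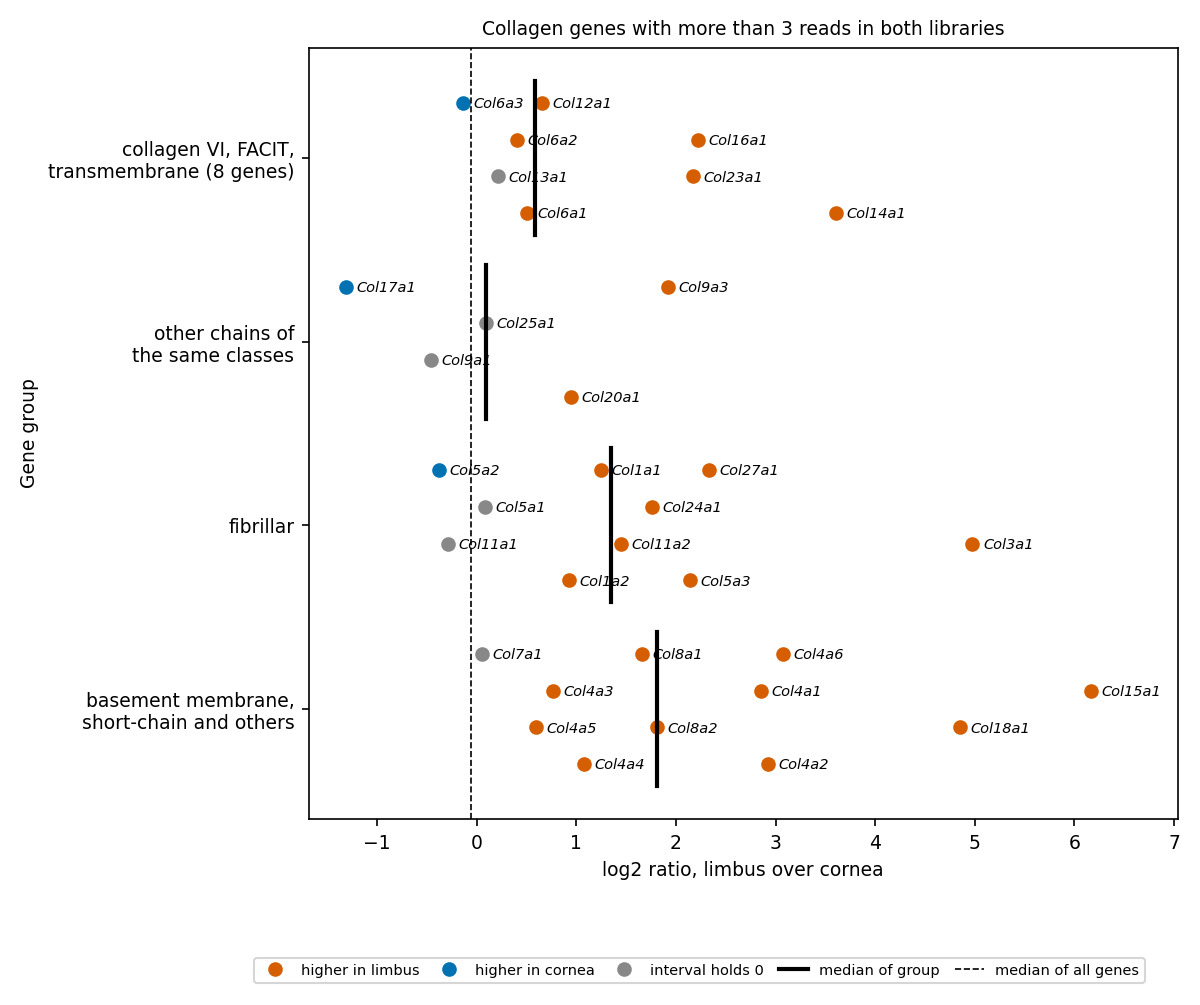
log2 ratio of limbus over cornea of collagen genes by class, 1 point per gene with more than 3 reads in both libraries, orange where called higher in the limbus, blue where called higher in the cornea and grey where the interval held 0. Black bars are group medians (0.58 for the 8 genes, 1.35 for fibrillar and 1.81 for basement membrane and related collagens) and the dashed line is the median of all genes, -0.05.

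Among the other collagens, the gene nearest in log2 ratio over the 2 libraries was sought for each of the 8 among 34 collagen genes. Col6a2 was nearest to Col6a1, Col16a1 to Col23a1, and Col23a1 to the fibrillar Col5a3, which had 87 and 359 reads. Col6a1 and Col12a1 were both nearest to the basement membrane chain gene Col4a5, with 680 and 963 reads and a log2 ratio of 0.60. Col14a1 was nearest to Col28a1, which had 6 and 54 reads and differed from it by 0.34 on the log2 scale. The log2 ratio of Col28a1, 3.27, lay within the interval of Col14a1 (3.18 to 4.07). Col6a3 was nearest to Col11a1 (189 and 145 reads) and Col13a1 to Col25a1, whose 4 and 4 reads leave its ratio poorly known.

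The receptors of these collagens were called in both directions. Of 11 receptor genes tested, 7 were called higher in the limbus, 3 higher in the cornea and 1 neither, with a median log2 ratio of 0.95. Of all genes, 33.2% were called higher in the limbus and 40.6% higher in the cornea. Antxr1, a cell surface receptor that binds collagen VI, had 7976 corneal and 5453 limbal reads, a log2 ratio of -0.45 (-0.50 to -0.40). With the size factors it thus lay on the side of Col6a3 and opposite to Col6a1 and Col6a2. With total reads Col6a3 had 0.07 and was on the limbal side with the other 2 chain genes, so the shared side depends on the scaling. Its relative Antxr2, which takes up collagen VI, had 30 and 143 reads, with 2.35 (1.77 to 2.97). The collagen receptor kinase gene Ddr1 had 6228 and 5997 reads, with 0.04 (-0.01 to 0.09).

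Of 11 genes of matrix proteins that bind collagen VI, XII or XIV, 9 were higher in the limbus, 1 in the cornea and 1 neither, with a median of 1.73. The shares of all genes were 33.2% for the limbus and 40.6% for the cornea. Besides Dcn, the biglycan gene Bgn had 4499 and 11567 reads, with a log2 ratio of 1.46. Tnc encodes tenascin C, a relative of the tenascin that collagens XII and XIV bind, and had 9 corneal and 834 limbal reads, with 6.63 (5.70 to 7.76). Of 9 protease genes tested, 4 were higher in the limbus, 3 in the cornea and 2 neither, with a median of 0.04. Those counts are near the shares of all genes and are no result about the proteases. Mmp14 had 4339 and 4187 reads, with a log2 ratio of 0.04 (-0.02 to 0.11), and Mmp2 had 1275 and 3637, with 1.61. Furin, named after its values were seen because its product can shed collagens XIII and XXIII, had 1317 and 1585 reads, with 0.36 (0.26 to 0.47), a smaller ratio than that of Col23a1.

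**Figure D5:**
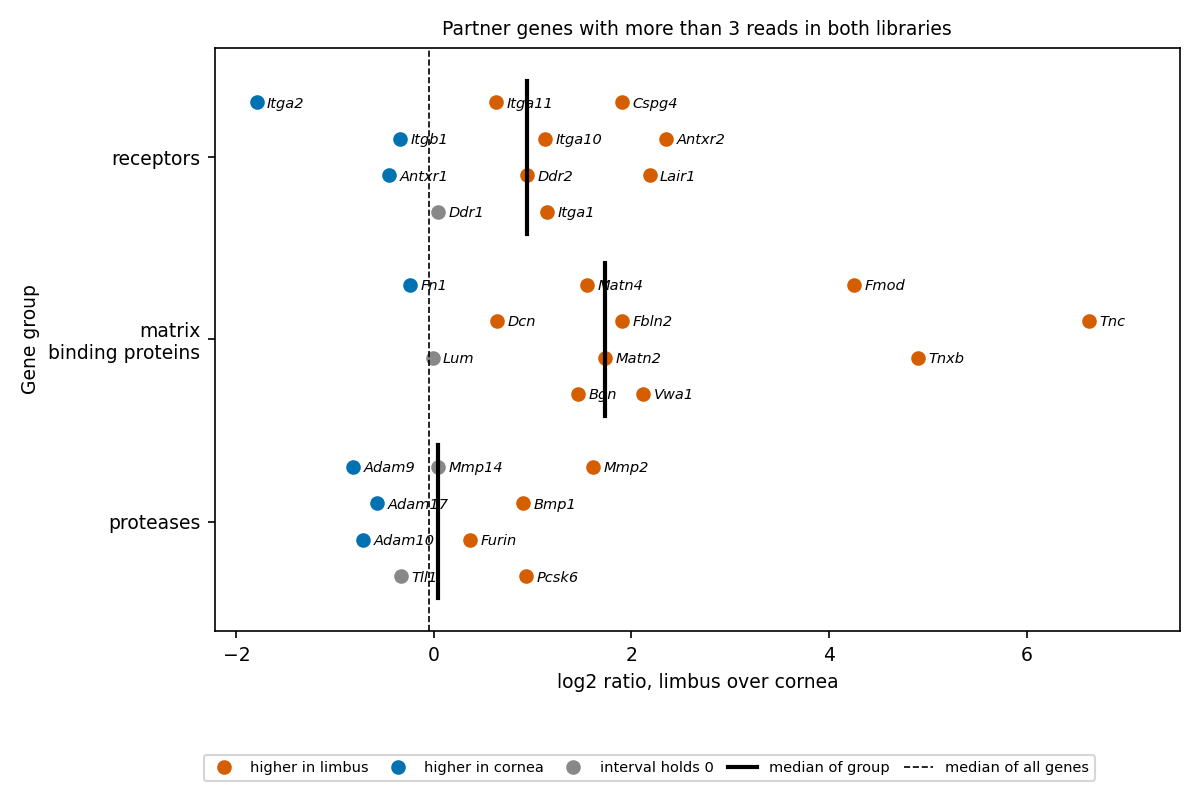
log2 ratio of limbus over cornea of receptor, matrix binding and protease genes, 1 point per gene with more than 3 reads in both libraries, coloured by call as orange (limbus), blue (cornea) and grey (interval held 0). Black bars are the group medians of 0.95, 1.73 and 0.04.

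The tissues also differed in markers of the cells that can express these collagens. Summed over 6 keratocyte genes, normalised reads were 642200 (cornea) and 278700 (limbus), or 2.30-fold higher in the cornea, with 3 genes called on the corneal side and 2 on the limbal side. Aldh3a1, which the corneal epithelium also expresses, held most of that sum, Lum had 8471 and 7850 reads, with a log2 ratio of -0.01, and Ptgds had 186 and 1950, with 3.49. Kera had 12119 and 1423 reads, with -2.99, and Aldh1a1 7369 and 1548, with -2.16, both named after their values were seen. The sum over 6 fibroblast genes was 25670 (cornea) and 39940 (limbus), or 1.56-fold, with 3 of 5 tested called on the limbal side and 2, Dpt among them, on the corneal side. Smooth muscle and pericyte genes summed to 346 and 2960 and endothelial genes to 218 and 2495, with all 5 and all 3 genes tested higher in the limbus. The cornea was not without reads of these genes: Pdgfrb had 274 corneal and 995 limbal reads, Tie1 44 and 519, and Kdr, named after its values were seen, 170 and 278, while Pecam1 had 6 and 831. For skeletal muscle genes the sums were 82.2 and 11790, with 6 of 6 tested higher in the limbus and Des at 0 in the cornea. Schwann cell genes summed to 4862 and 8052, with 4 of 4 higher in the limbus. For cartilage genes the sums were 6.77 and 392, with Acan and Matn3 at 0 in the cornea and Acan at 3 reads in the limbus. The corneal epithelial sum was 2.45-fold higher in the cornea, with 4 of 5 genes called so, and the conjunctival and limbal epithelial sum was 7.76-fold higher in the limbus, with 5 of 5. The marker counts stand beside 33.2% of all genes called higher in the limbus and 40.6% higher in the cornea. The part of these cells in the ratios of the 8 collagen genes was not tested.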

How the data were processed

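Limbal rims and corneal buttons of wild type mice were pooled by tissue, and stranded total RNA libraries were sequenced on an Illumina NextSeq. The authors used CLC Genomics Workbench with the GRCm38 (mm10) build after adaptor trimming, and name the trimmed mean of M-values as normalization. The authors deposited 1 table with a mean normalised signal per gene, in which each library is divided by its size factor. The authors also deposited a log2 fold change of cornea over limbus, its standard error (treated as a score), and p-values. The fold change and its error are not printed and were not compared with the ratios here. They were used to choose between read numbers and to fit how strongly the fold changes were shrunk. The fold change also settled which size factor belongs to which tissue, so the direction of every ratio rests on it. The p-values were not used.

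Each mean can be split into whole reads of the cornea and of the limbus, at 109 to 102 (size factors 1.034 and 0.967). Where several pairs of read numbers gave the mean, the fold change was taken as given. A dispersion, that is the spread of reads beyond counting error, was solved for each pair. The pair was kept whose predicted error came closest to the table. For 120 genes this left the choice unclear. There the fold change and error predicted from the dispersions of similar genes were both matched. Of 17442 genes above 0, 6143 allowed 1 pair, and the error of 17411 was met within 0.001. This covers the error alone, with a dispersion fitted to each gene. For 6 of the 8 genes the next best pair missed by at least 198 times as much, and for Col13a1 and Col14a1 no other pair could be reached. Read numbers are therefore derived values. Simulated data were made with the same model, size factors and shrinkage that the recovery inverts. On these, all 17083 genes were recovered exactly, and 200 of 200 genes made to change 4-fold had the right direction. This checks the steps of the recovery alone. It cannot show that the deposited values follow the model or come from 1 library per tissue. The 17484 rows without a gene name were left out. The file holds no value per numbered sample, so each tissue was treated as 1 library.

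The 8 genes, the gene lists and the tests were chosen with earlier results of these data known. Named genes are the 8, the other chains of their classes, from each list at most the 2 genes with the highest normalised mean and the one with the largest ratio among those with over 3 reads in each library and a mean of at least 10, and the nearest collagens. Furin, Kdr, Kera and Aldh1a1, and the markers Des, Acan and Matn3 that were at 0 in the cornea, fall outside this rule and were named after their values were seen. Lengths are from GENCODE M21, and promoters from RefSeq for 6 of the 8 genes. Whether counting used strand is not given in the sources used here. Other scalings, a pseudocount of 1, filters, other lengths and the next best pair were tried. Python 3.11.15, numpy 2.4.6, scipy 1.17.1 and pandas 2.3.3 were used.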

Additional observations from a re-analysis of the deposited data

How the results depend on the processing

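Col14a1, Col16a1 and Col23a1 were higher in the limbus under each scaling, pseudocount, filter and pair of reads that was run. With total reads Col6a3 turned to 0.069 (0.00077 to 0.14), Col13a1 reached 0.42 (0.00069 to 0.84), and the number of the 8 genes higher in the cornea went from 1 to 0. References to a stromal gene were chosen after seeing the data. Relative to Col1a1, log2 ratios turned to -0.74 for Col6a1, -0.85 for Col6a2, -0.60 for Col12a1 and -1.04 for Col13a1, leaving 3 genes on the limbal and 5 on the corneal side, beside 8.72% and 80.4% of all genes. Relative to Dcn they turned to -0.13 for Col6a1, -0.24 for Col6a2 and -0.42 for Col13a1, and Col12a1 was at 0.016 (-0.05 to 0.08), leaving 3 and 4, beside 14.1% and 70.6%. Such a reference moves every gene by the same amount, and Col13a1 had no call to turn. A 2-fold limit left 3 limbal and 0 corneal calls. The next best pair of reads kept each direction but gave 3.14 for Col6a1, 2.36 for Col6a2, -0.77 for Col6a3, 4.16 for Col12a1, 4.62 for Col16a1, 4.04 for Col23a1. Its log2 balances were 0.77 for Col6a1 to Col6a2, 3.90 for Col6a1 to Col6a3, 3.13 for Col6a2 to Col6a3, and 0.58 (0.062 to 1.08) for Col16a1 to Col23a1, whose interval then left 0. By the longest transcript, the collagen VI shares were 50.27% (cornea) and 54.95% (limbus) for Col6a1, 32.71% and 33.16% for Col6a2, and 17.02% in the cornea for Col6a3. Other chains called higher in the limbus were 1 at a mean of at least 50 and 5 with no filter, in place of 2, and total reads left 0 matrix binding genes higher in the cornea, in place of 1. The share of all genes with a ratio above 0 was 46.6%, and 58.9% with total reads. No paired analysis was possible because the table holds no value per numbered sample, and leaving out each replicate was not run for the same reason. The depth of Col13a1 and of the chains under 50 reads limits what their intervals can show.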
